A study of Homo sapiens with 16 samples.

Results

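Complexes II to V of the mitochondrial respiratory chain were followed through the mRNA of their nuclear-encoded subunits in A498, a line grown from a human kidney tumour of the clear cell type (ccRCC). Genes were taken by symbol (SDHA to SDHD, UQCR genes, CYC1, COX4 to COX8 genes and ATP5 genes, under former or current names), protein-coding only, and each was read from its brightest probe set that carried exactly 1 gene symbol. This gave 44 genes of the 22411 measured: 3 of complex II, 8 of complex III, 15 of complex IV and 18 of complex V. Each of the 44 had 1 such probe set. The probe sets of 4 pseudogenes and 5 probe sets shared between several symbols, those of UQCRH and COX7C among them, were left out, and SDHB and UQCRFS1 were not analysed here.

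The 16 arrays fell into 4 groups of 4. In all 4 groups the A498 cells held hairpin constructs, switched on by doxycycline, that target DGAT1 and DGAT2, the enzymes of the last step of triglyceride synthesis, delivered on separate Tet-pLKO vectors with drug selection. Treatment with vehicle or doxycycline lasted 5 days, and the cells were in normoxia or in hypoxia at 0.5% O2, under low serum, for 2 days before RNA was taken. The genotype label "wildtype" belongs to the vehicle groups, whose cells hold the same uninduced constructs, and "DGAT1/2 knockdown" to the doxycycline groups. No group received doxycycline without the hairpins, so doxycycline itself and the loss of DGAT1 and DGAT2 cannot be told apart. The labels name biological replicates and do not describe separate cultures, so a p-value here measures only the spread between these arrays.

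In the inner mitochondrial membrane, complex II feeds electrons from succinate to ubiquinone, complex III passes them on to cytochrome c, and complex IV hands them to oxygen. Complexes III and IV pump protons as they do so, and complex V, the ATP synthase, lets protons flow back through a ring of c subunits to drive ATP synthesis. Complex II is encoded wholly in the nucleus, whereas complexes III, IV and V also hold subunits from mitochondrial DNA, which were not analysed here. ccRCC is known for loss of VHL, high activity of hypoxia-inducible factors and low mitochondrial respiration.

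DGAT1 had a mean log2 value of 6.82 with vehicle and 5.11 with doxycycline in normoxia, and 6.50 and 5.18 in hypoxia. DGAT2 had 7.04 and 5.21 in normoxia and 6.52 and 5.12 in hypoxia. For both genes the arrays of vehicle and doxycycline groups did not overlap. PAX8, VIM, KRT8 and KRT18, markers of this renal line, had means of 11.3 to 15.2, whereas PTPRC, CD3E, LYZ, PECAM1, VWF, KDR and CDH5, which define leukocytes and endothelium, stayed at or below 4.32. Among the other markers of the line, CDH6 and CDH2 had means of 10.7 and 13.1, and PAX2 and NNMT only 5.96 and 6.95. CDH1 was at or below 3.61 and CD68 at or above 11.6. Of the 9 measured markers of the line, CDH6 was higher with doxycycline in normoxia, at 1.20, and lower under hypoxia with doxycycline, at -1.28. KRT18 and KRT8 were lower with doxycycline in normoxia, at -0.68 and -0.50, and KRT18 also with doxycycline in hypoxia, at -0.41, and under hypoxia with vehicle, at -0.49. The part of these shifts in the subunit values was not tested. Vehicle hypoxia replicate 4 stood apart from its group. On the main axis of variation within groups it lay at -45.8, against 9.49 to 26.1 for the other vehicle hypoxia arrays, and the 44 subunits were on average 0.21 lower on it than in its group as a whole, on the log2 scale. Doxycycline hypoxia replicate 4 lay at 31.5, and its subunits were 0.10 higher than in its group. The main shifts in subunit values without one of these arrays are given with the genes. In bulk RNA, fewer transcripts per cell and a different make-up of the culture cannot be told apart.

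On the log2 scale of the arrays the median gene had a level of 4.89, and 39 of the 44 subunits lay above it. The 5 below were COX4I2, COX6A2, COX7A1, COX7B2 and COX8C, the isoforms known from lung and other restricted sites, striated muscle or testis, whose values ran from 2.83 to 4.28 over the 16 arrays. Their ubiquitous counterparts COX4I1, COX6A1, COX7A2 and COX8A ran from 9.25 to 16.1. Levels of different probe sets cannot be compared as amounts, and these ranges say only which isoform genes gave a signal near the low end of the arrays. COX6A1 and ATP5F1B exceeded 16 on some arrays, where a scanner's range usually ends. The deposited values reach 19.85, and 38 genes lay above 16 on all arrays, so 16 is no upper limit of these values. Whether differences of these 2 genes are compressed was not tested.

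Hypoxia lowered a small number of subunits, and most of the called ones belonged to complex V. With vehicle, 5 of the 44 genes were lower and 0 were higher in hypoxia (limma with Benjamini-Hochberg adjustment over all 22411 genes, threshold 0.05), when 6.91% of all genes were called in either direction and 4.65% were called lower. With doxycycline, 5 were again lower and 0 higher, when 3.98% of all genes were called and 2.97% called lower. ATP5MC1 and ATP5PD were called in both settings. In both, 42 of the 44 differences lay below 0, with a median of -0.15 with vehicle and -0.19 with doxycycline, beside -0.05 and -0.01 for all genes. Without vehicle hypoxia replicate 4 the vehicle median was -0.09, with 35 of 44 below 0, beside -0.02 for all genes. Centring each array gave 40 and 40 below 0, and quantile normalization 38 and 41. Among the 10824 genes brighter than the dimmest ubiquitous subunit, a comparison chosen after the values were seen, 50.3% and 55.3% lay below 0. Of these brighter genes 7.7% and 5.4% were called lower, more than of all genes.

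Doxycycline changed fewer of them. In normoxia SDHA was lower and COX7A2L higher, 2 of 44 genes, when 9.08% of all genes were called. In hypoxia SDHA and COX4I1 were lower and 0 were higher, when 4.66% of all genes were called. Counted over both directions, the shares of called subunits (1 in each direction, then 2 lower) were at or below those of all genes. For genes called lower in hypoxia, the share was 4.545% of the subunits, beside 1.995% of all genes and 3.788% of the 10824 brighter genes. With so few calls, these shares are no result about the complexes. The differences lay below 0 for 32 and 31 of the 44 genes, with medians of -0.08 and -0.10 when 57.1% and 51.5% of all genes lay below 0. After quantile normalization the counts were 32 and 29.

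**Figure D1:**
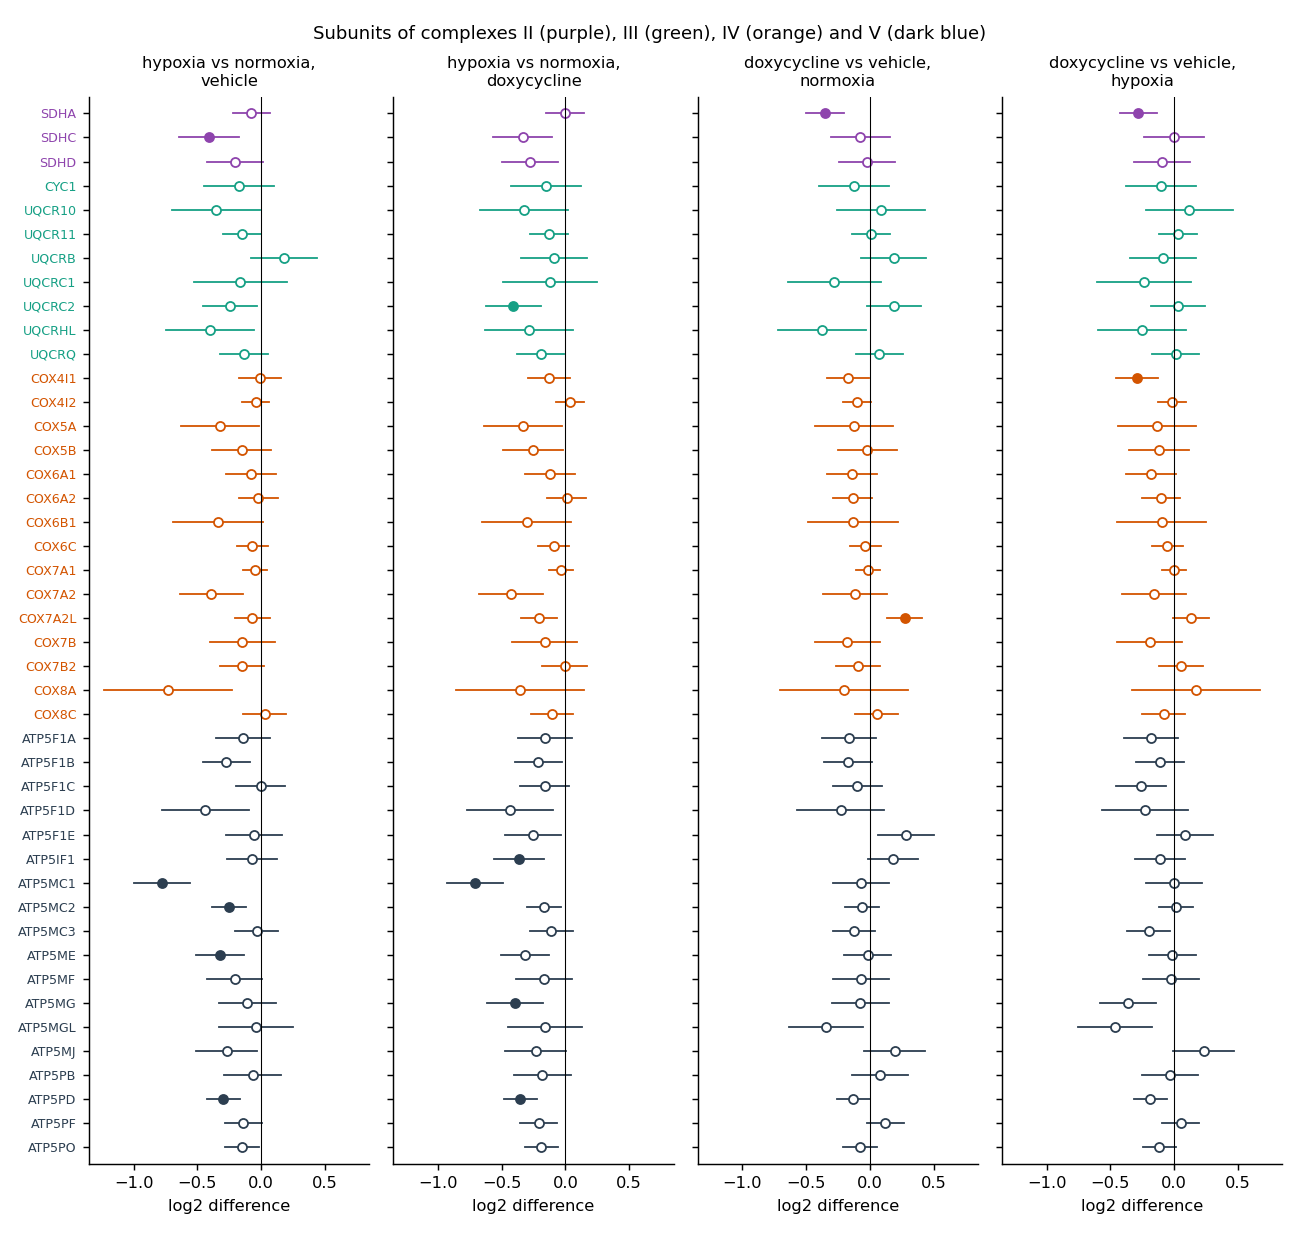
Log2 differences of all 44 subunits in the 4 comparisons of 1 factor (points, with 95% intervals from limma), coloured by complex, where filled points passed an adjusted p of 0.05. In both hypoxia panels 42 of 44 points lie left of 0, with ATP5MC1 farthest left in the doxycycline panel at -0.71, and the doxycycline panels hold 2 filled points each.

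Setting both changes together, doxycycline hypoxia against vehicle normoxia, gave 17 lower and 0 higher genes among the 44, when 21.3% of all genes were called and 13.6% called lower. Of the 10824 brighter genes 20.1% were called lower. The 17 were 2 genes of complex II (SDHA and SDHC), UQCRHL of complex III, 3 of complex IV (COX4I1, COX5A and COX7A2) and 11 of complex V. Among them ATP5MC3, ATP5F1A and COX5A lost their calls in 14, 10 and 9 of 27 alternative analyses, and the others in at most 3. The median over the 44 was -0.26, beside -0.04 for all genes. This comparison shares its vehicle normoxia arrays with the hypoxia comparison in vehicle and its doxycycline hypoxia arrays with that in doxycycline, so its calls are no separate evidence. In the interaction of doxycycline and hypoxia 0 of the 44 subunits and 0 of all genes (0%) passed limma's test. At an unadjusted p under 0.05 the interaction held 1 subunit, ATP5IF1, and 1026 of all genes.

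The promoters of 3 subunits are shown because each had a call in a comparison of 1 factor that was kept in all 27 alternative analyses, ATP5MC1 and ATP5PD for hypoxia with doxycycline and SDHA for doxycycline in normoxia. Printed are the 250 bases before the start, from RefSeq (GRCh38.p14), read 5′ to 3′ on the gene's strand, with capitals at each match of the NRF1 core (GCGCANGCG), the ETS core (CCGGAAG), the YY1 core (ATGGCGG), the hypoxia response core (ACGTG or GCGTG) and the CCAAT box, on either strand and with overlaps counted.
ATP5MC1, chr17:48892537-48892786, plus strand: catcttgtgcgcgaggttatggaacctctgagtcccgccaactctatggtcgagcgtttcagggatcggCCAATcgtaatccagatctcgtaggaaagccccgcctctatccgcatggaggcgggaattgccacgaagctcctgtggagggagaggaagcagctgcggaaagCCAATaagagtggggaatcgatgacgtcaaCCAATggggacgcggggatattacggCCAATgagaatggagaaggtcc
ATP5PD, chr17:75046970-75047219, minus strand: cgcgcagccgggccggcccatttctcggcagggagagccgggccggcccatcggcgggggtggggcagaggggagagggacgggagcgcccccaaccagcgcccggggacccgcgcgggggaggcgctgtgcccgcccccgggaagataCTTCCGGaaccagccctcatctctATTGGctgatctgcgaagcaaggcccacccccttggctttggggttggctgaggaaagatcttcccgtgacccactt
SDHA, chr5:218070-218319, plus strand: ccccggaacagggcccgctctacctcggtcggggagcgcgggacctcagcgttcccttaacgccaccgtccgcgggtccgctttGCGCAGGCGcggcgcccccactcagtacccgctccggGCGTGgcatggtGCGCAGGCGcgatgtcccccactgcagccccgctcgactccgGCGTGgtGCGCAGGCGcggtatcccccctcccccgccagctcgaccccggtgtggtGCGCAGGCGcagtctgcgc
SDHA held 4 NRF1 cores and 2 hypoxia response cores in these bases, ATP5PD 1 ETS core and 1 CCAAT box, and ATP5MC1 4 CCAAT boxes and none of the other cores. The full ATP5MC1 window holds 2 hypoxia response cores, which lie in the 50 bases after the start that are not printed. The CCAAT box was added after the windows had been read.

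Promoter windows of 300 bases, from 250 before to 50 after the start, were found for 32 of the 44 genes, and a gene counted once where any of its windows held a match. NRF1 and GABP, an ETS factor, are known regulators of nuclear respiratory genes. The NRF1 core was in windows of 13 of the 32 genes (40.6%), beside 12.5% of 15842 protein-coding genes and 9.02% of all genes with a window. The ETS core was in 13 (40.6%), beside 16.5% and 12.2%. The YY1 core was in 5 (15.6%), beside 9.15% and 6.66%. The SP1 core (GGGCGG) was in 18 (56.25%), beside 64.3% and 48.3%, the hypoxia response core in 19 (59.4%), beside 61.9% and 52.4%, and the CCAAT box in 15 (46.9%), beside 42.1% and 39.7%. A match describes the letters of a window and is not evidence of a bound factor.

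In complex II, the only complex that is also an enzyme of the tricarboxylic acid cycle, SDHA was called lower with doxycycline and SDHC under hypoxia with vehicle. SDHA encodes the flavoprotein that oxidises succinate. Its log2 values were 9.16, 9.12, 9.24 and 9.24 in vehicle normoxia and 8.82, 8.92, 8.83 and 8.80 in doxycycline normoxia, so every doxycycline array lay below every vehicle array. The difference was -0.35 (SE 0.07, limma adjusted p = 0.00496), or 78.4% of the vehicle level, and it kept its call in all 27 alternatives, with adjusted p-values up to 0.0212. In hypoxia SDHA was at 9.15, 9.13, 9.18 and 9.01 with vehicle and at 8.74, 8.79, 8.85 and 8.97 with doxycycline, again without overlap. That difference was -0.28 (SE 0.07, limma adjusted p = 0.0288), and it lost its call in 10 of 27 alternatives, 6 of them with 1 hypoxia array left out, at adjusted p-values of up to 0.0911 in those 6. The hypoxia difference of SDHA was -0.08 with vehicle (limma adjusted p = 0.493) and -0.04 without vehicle hypoxia replicate 4, and with doxycycline its 95% interval ran from -0.15 to 0.14. The printed SDHA window is the one with 4 NRF1 cores. SDHA has pseudogene copies elsewhere in the genome, and how far its probes also read them was not tested.

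SDHC and SDHD encode the membrane anchors that hold the heme and the ubiquinone site. SDHC was at 11.65, 11.39, 11.66 and 11.75 in vehicle normoxia and at 11.28, 11.45, 11.18 and 10.90 in vehicle hypoxia, where replicate 2 of the hypoxia arrays overlapped the normoxia range. Its difference of -0.41 (SE 0.11) passed limma's test (adjusted p = 0.0365), while the exact permutation test of 4 against 4 arrays gave p = 0.0571. The call was lost in 15 of 27 alternatives, 10 of them with 1 array left out, with adjusted p-values of 0.0855 without vehicle hypoxia replicate 4 and up to 0.111 without vehicle normoxia replicate 4. With doxycycline SDHC was at 11.53, 11.68, 11.45 and 11.49 in normoxia and at 11.13, 11.17, 11.19 and 11.31 in hypoxia, with no overlap, and its difference of -0.34 did not pass (limma adjusted p = 0.111). SDHD gave -0.21 and -0.28 under hypoxia (limma adjusted p = 0.225 and 0.174). The doxycycline difference of SDHC was -0.07 in normoxia, and in hypoxia its 95% interval ran from -0.23 to 0.23, while SDHD gave -0.02 and -0.09, none past the test.

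Set against each other within each array, the SDHA change minus the SDHC change under doxycycline was -0.28 both in normoxia and in hypoxia. Under hypoxia it was 0.33 with vehicle and 0.33 with doxycycline. An exact two-sided permutation test of 4 against 4 arrays gave p = 0.0286 for 3 of these 4, the smallest value it allows, and 0.0571 for hypoxia with vehicle. Adjusted over the 24 such tests run within complex II and within the c subunit genes, these became 0.0623 and 0.114, so none passed 0.05.

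**Figure D2:**
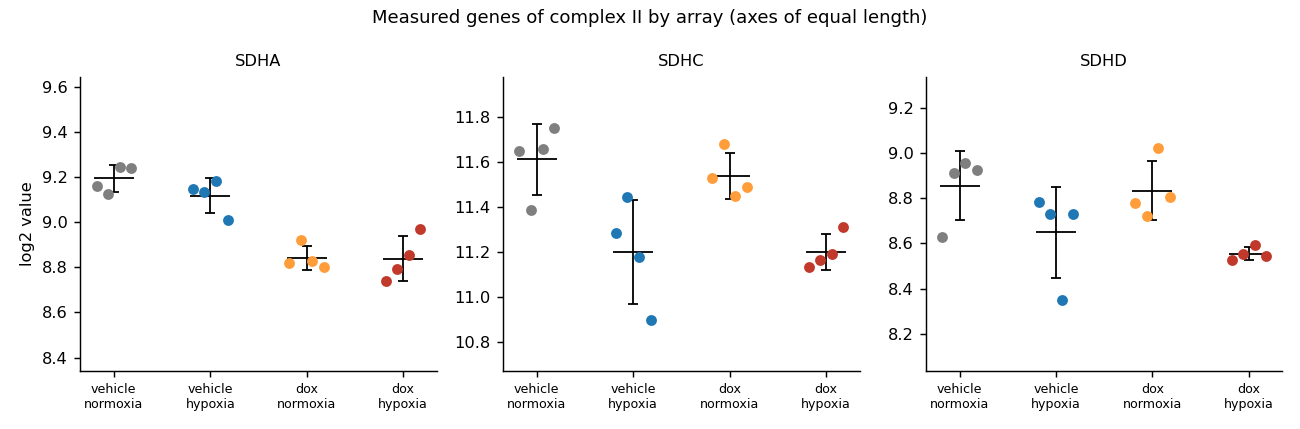
Log2 values of SDHA, SDHC and SDHD on each of the 16 arrays by group (points in replicate order, bars for mean and SD of 4 arrays), on axes of equal length. SDHA separates by doxycycline, with all 8 vehicle arrays at 9.01 or higher and all 8 doxycycline arrays at 8.97 or lower, whereas the means of SDHC and SDHD are lower in hypoxia, past the test only for SDHC with vehicle.

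Complex III held 1 called subunit among 8 under hypoxia. UQCRC2, a core protein of the matrix side, was at 13.62, 13.66, 13.77 and 13.68 in doxycycline normoxia and at 13.14, 13.39, 13.20 and 13.37 in doxycycline hypoxia, with every hypoxia array below every normoxia array. The difference was -0.41 (SE 0.10, limma adjusted p = 0.0326), or 75.4%, and it no longer passed in 7 of 16 fits with 1 array left out, with adjusted p-values up to 0.112, nor with the replicate block (0.0594). With vehicle it was -0.25 (limma adjusted p = 0.147). UQCRC1, the other core protein, gave -0.16 and -0.12 under hypoxia and -0.28 and -0.24 with doxycycline, none past the test (limma adjusted p = 0.338 or higher). The UQCRC1 difference under hypoxia with vehicle turned to 0.03 without vehicle hypoxia replicate 4, and that with doxycycline in hypoxia was then -0.42. Its hypoxia difference with doxycycline was -0.22 without doxycycline hypoxia replicate 4. CYC1, the cytochrome that hands electrons to cytochrome c, gave between -0.18 and -0.10 in these 4 comparisons (limma adjusted p = 0.397 or higher), and without vehicle hypoxia replicate 4 it gave -0.04 under hypoxia with vehicle and -0.23 with doxycycline in hypoxia. UQCRQ, a small subunit of the ubiquinone-binding part, gave -0.13 and -0.19 under hypoxia and 0.07 and 0.01 with doxycycline, also short of the threshold.

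UQCRHL, a near-identical copy of the hinge protein gene UQCRH, had the largest fall of complex III in the double comparison, from 9.98, 10.29, 10.36 and 10.22 in vehicle normoxia to 9.42, 9.59, 9.52 and 9.70 in doxycycline hypoxia. That difference was -0.66 (SE 0.16, limma adjusted p = 0.0102), and it kept its call in all 27 alternatives. Signal from UQCRH itself cannot be told apart from that of the copy. In the 4 comparisons of 1 factor it ranged from -0.40 to -0.25 and passed in none. Without vehicle hypoxia replicate 4 it was -0.23 under hypoxia with vehicle and -0.42 with doxycycline in hypoxia, where it had been -0.40 and -0.25. UQCRB went the other way under hypoxia with vehicle, by 0.18 (SE 0.12, limma adjusted p = 0.351), the only subunit of complex III above 0 there.

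Complex IV, the oxygen-consuming step, had 0 of 15 genes called under hypoxia in either setting, although 14 and 13 of its differences lay below 0 (10 with vehicle after quantile normalization). Of these 15 genes, 5 are the restricted isoforms with a signal near the low end of the arrays, where a call is hard to reach. Without the 2 hypoxia arrays numbered 4, 5 of the 15 were called lower with doxycycline. That fit also called a larger share of all genes, given further below, so these 5 calls are no result about complex IV. COX7A2 came close to the threshold in both, at -0.39 with vehicle and -0.43 with doxycycline (SE 0.12, limma adjusted p = 0.0595 and 0.0552). COX7A2 encodes the ubiquitous isoform of subunit VIIa. It was at 10.11, 9.82, 10.09 and 9.84 in vehicle normoxia and at 9.61, 9.80, 9.47 and 9.44 in vehicle hypoxia, where the highest hypoxia array lay just under the lowest normoxia array. In doxycycline hypoxia it was at 9.25, 9.37, 9.37 and 9.69, and against vehicle normoxia it fell by 0.55 on the log2 scale (SE 0.12, limma adjusted p = 0.00416), a call kept in all 27 alternatives. COX8A, the ubiquitous subunit VIII, had the largest SE of the 44 genes. It was at 15.76, 15.77, 15.62 and 15.92 in vehicle normoxia and at 15.28, 15.79, 14.81 and 14.28 in vehicle hypoxia, a difference of -0.73 with an SE of 0.24 (limma adjusted p = 0.0770). It was -0.47 without vehicle hypoxia replicate 4 (limma adjusted p = 0.196).

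COX4I1, the ubiquitous isoform of subunit IV, was called lower with doxycycline in hypoxia. It was at 13.62, 13.60, 13.62 and 13.46 with vehicle and at 13.17, 13.28, 13.26 and 13.43 with doxycycline, so that the groups did not overlap, although replicate 4 of each came close to the other group. The difference was -0.29 (SE 0.08, limma adjusted p = 0.0427), and it was lost in 15 of 27 alternatives. In normoxia it was -0.17 (limma adjusted p = 0.190). Its counterpart COX4I2, known elsewhere as a hypoxia-inducible isoform, stayed between 4.03 and 4.28 on all 16 arrays and changed by -0.04 and 0.04 under hypoxia, with 95% intervals that reached no further than -0.15 and 0.14. COX6A1, COX6A2 and COX7A1 also passed no test in the 4 comparisons of 1 factor, at differences between -0.18 and 0.01. Without vehicle hypoxia replicate 4 the hypoxia differences with vehicle of COX4I1, COX6A1 and COX6A2 turned to 0.03, 0.02 and 0.02, and that of COX4I2 was -0.02, while COX6A1 passed as lower with doxycycline in hypoxia, at -0.28 (limma adjusted p = 0.0264).

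COX7A2L, related to subunit VIIa and known for joining complexes III and IV in supercomplexes, was the only subunit called higher. It was at 7.33, 7.36, 7.39 and 7.39 in vehicle normoxia and at 7.70, 7.66, 7.60 and 7.61 in doxycycline normoxia. All 4 doxycycline arrays lay above all 4 vehicle arrays, and the difference was 0.27 (SE 0.07, limma adjusted p = 0.0176). The call was lost without doxycycline normoxia replicate 1 (adjusted p = 0.0551) and after quantile normalization (0.102). In hypoxia the difference was 0.13 (limma adjusted p = 0.320) and 0.07 without doxycycline hypoxia replicate 4, and the interaction was -0.14 (SE 0.09, adjusted p = 0.956).

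Complex V had all 18 differences below 0 under hypoxia both with vehicle and with doxycycline, and 4 genes were called lower in each. With doxycycline all 18 stayed below 0 under each of the 27 alternatives. Many of these, such as leaving out a vehicle array or the intensity trend, cannot change a difference with doxycycline. Only the settings that alter its arrays or values bear on the sign. With vehicle the count was 15 to 18, with 17 after centring each array and 15 without vehicle hypoxia replicate 4. The medians were -0.15 and -0.21. Whether the share of called genes differed between complexes was not tested.

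The c subunit of the rotor ring is encoded by ATP5MC1, ATP5MC2 and ATP5MC3, which give the same mature protein from different precursors. ATP5MC1 had the largest fall in hypoxia of all 44 subunits in both settings. It was at 9.25, 9.04, 9.19 and 9.30 in vehicle normoxia and at 8.41, 8.70, 8.33 and 8.25 in vehicle hypoxia, with no overlap. The difference was -0.77 (SE 0.10, limma adjusted p = 0.000836), or 58.5% of the normoxia level. With doxycycline ATP5MC1 was at 8.97, 9.29, 9.02 and 9.24 in normoxia and at 8.41, 8.43, 8.34 and 8.51 in hypoxia, again with no overlap, and the difference was -0.71 (SE 0.10, limma adjusted p = 0.00184), or 61.2%. Among the alternatives only the methods' t-test with vehicle took the adjusted p above the threshold, to 0.0786. The doxycycline difference of ATP5MC1 had a 95% interval from -0.29 to 0.15 in normoxia and from -0.22 to 0.22 in hypoxia.

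ATP5MC2 fell less, from 6.32, 6.26, 6.30 and 6.34 to 6.10, 6.19, 6.05 and 5.90 under hypoxia with vehicle. The difference of -0.25 (SE 0.06, limma adjusted p = 0.0281) lost its call in 10 of 27 alternatives, 5 of them with 1 array left out, with adjusted p-values of 0.0688 without vehicle hypoxia replicate 4 and up to 0.0848 without vehicle normoxia replicate 4. With doxycycline it was -0.17 (limma adjusted p = 0.174). ATP5MC3 gave -0.04 and -0.11 (limma adjusted p = 0.797 and 0.586), and its vehicle hypoxia arrays at 7.28, 7.26, 7.39 and 6.97 overlapped the normoxia arrays at 7.26, 7.16, 7.34 and 7.28. The ATP5MC3 difference with vehicle turned to 0.05 without vehicle hypoxia replicate 4. Within arrays, the change of ATP5MC1 minus that of ATP5MC2 under hypoxia was -0.53 with vehicle and -0.54 with doxycycline. Against ATP5MC3 it was -0.74 and -0.60. Each of these 4 gave p = 0.0286 in the exact permutation test, the smallest it allows, and 0.0623 after adjustment over the 24 tests. The ATP5MC1 window shown above is the one with 4 CCAAT boxes and no NRF1, ETS or YY1 core, with 2 hypoxia response cores after the start.

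**Figure D3:**
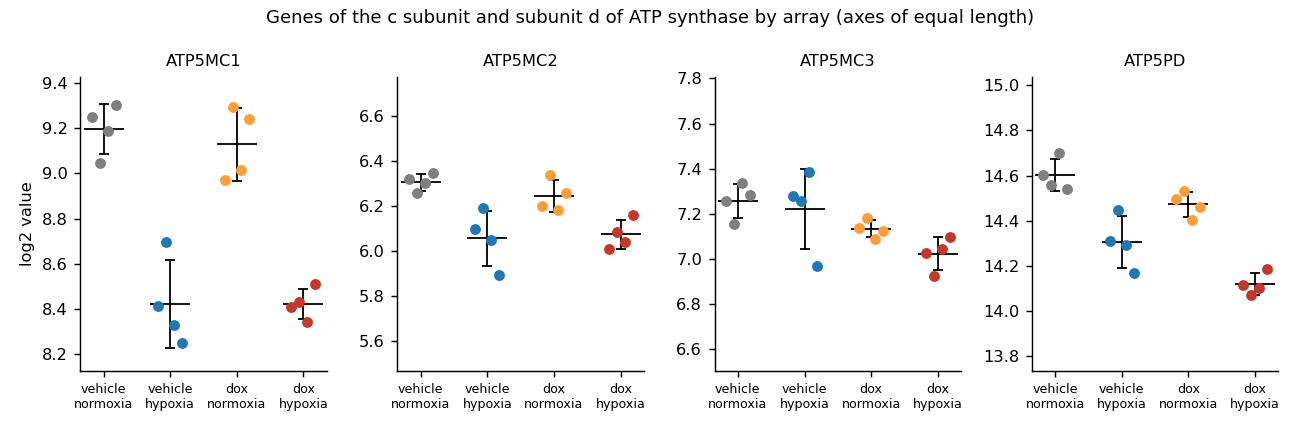
Log2 values of ATP5MC1, ATP5MC2, ATP5MC3 and ATP5PD on each of the 16 arrays by group (points in replicate order, bars for mean and SD of 4 arrays), on axes of equal length. ATP5MC1 drops from between 8.97 and 9.30 on the 8 normoxia arrays to between 8.25 and 8.70 on the 8 hypoxia arrays, ATP5PD and ATP5MC2 fall by less, and the ATP5MC3 arrays with vehicle overlap.

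ATP5PD, subunit d of the peripheral stalk that holds the catalytic head still, was the other gene called under both settings. It was at 14.60, 14.56, 14.70 and 14.54 in vehicle normoxia and at 14.31, 14.45, 14.29 and 14.17 in vehicle hypoxia. With doxycycline it was at 14.50, 14.53, 14.40 and 14.46 in normoxia and at 14.11, 14.07, 14.10 and 14.19 in hypoxia. Neither pair of groups overlapped. The differences were -0.30 (SE 0.06, limma adjusted p = 0.0105) and -0.35 (SE 0.06, limma adjusted p = 0.00497). The latter was kept in all 27 alternatives, and the former was lost only when the fit held just the arrays compared (0.126) and in the methods' t-test (0.136). In the double comparison ATP5PD fell by 0.48 on the log2 scale (SE 0.06, limma adjusted p = 8.35e-05), to 71.6%, with the smallest adjusted p of the 44. The other stalk subunits gave smaller differences under hypoxia, with ATP5PO, which ties the stalk to the head, at -0.15 and -0.19, ATP5PF at -0.14 and -0.21 and ATP5PB at -0.07 and -0.18, none past the test.

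Subunits e and g sit where ATP synthases pair up in the membrane. ATP5ME, subunit e, was at 8.52, 8.45, 8.56 and 8.53 in vehicle normoxia and at 8.17, 8.38, 8.30 and 7.93 in vehicle hypoxia, and its difference was -0.32 (SE 0.09, limma adjusted p = 0.0396). The call was lost in 15 of 27 alternatives, 9 of them with 1 array left out, with adjusted p-values of 0.0823 without vehicle hypoxia replicate 4 and up to 0.0987 without vehicle normoxia replicate 4. With doxycycline it was -0.32 as well (limma adjusted p = 0.0563). ATP5MG, subunit g, was called in hypoxia with doxycycline, where it went from 7.93, 7.90, 7.79 and 7.85 to 7.32, 7.61, 7.33 and 7.62, a difference of -0.40 (SE 0.10, limma adjusted p = 0.0465) that was lost in 15 of 27 alternatives. With vehicle it was -0.11, and -0.03 without vehicle hypoxia replicate 4. ATP5MGL, a near copy of ATP5MG whose signal may include that of ATP5MG, gave -0.35 and -0.46 with doxycycline in normoxia and in hypoxia (limma adjusted p = 0.129 and 0.0719) and -0.04 and -0.16 under hypoxia. Without vehicle hypoxia replicate 4 ATP5MGL passed with doxycycline in hypoxia, at -0.52 (limma adjusted p = 0.0448), and its hypoxia difference with vehicle turned to 0.02.

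ATP5IF1 encodes the inhibitor that keeps the enzyme from running backwards and hydrolysing ATP. It was at 7.997, 8.002, 8.31 and 7.93 in doxycycline normoxia and at 7.73, 7.71, 7.71 and 7.63 in doxycycline hypoxia, a difference of -0.36 (SE 0.09, limma adjusted p = 0.0378) lost in 14 of 27 alternatives. With vehicle it was -0.07 (limma adjusted p = 0.651). The difference of these differences was -0.30 (SE 0.13) and did not pass over all genes (limma adjusted p = 0.956). In the catalytic head, ATP5F1A and ATP5F1B, its alpha and beta subunits, gave -0.14 and -0.27 with vehicle and -0.16 and -0.21 with doxycycline under hypoxia, and ATP5F1D, the delta subunit of the central stalk, -0.44 and -0.43, all short of the threshold (limma adjusted p = 0.0764 or higher). With vehicle, ATP5F1A and ATP5F1B gave -0.04 and -0.16 without vehicle hypoxia replicate 4, and ATP5F1B then passed as lower with doxycycline in hypoxia, at -0.22 (limma adjusted p = 0.0289). In the double comparison these 3 were called lower, at -0.32, -0.38 and -0.66. The call of ATP5F1A was lost in 10 of 27 alternatives, that of ATP5F1D in 1 and that of ATP5F1B in 0. ATP5F1E, the epsilon subunit, had its 4 doxycycline normoxia arrays above its 4 vehicle normoxia arrays, by 0.29 (SE 0.10), without passing (limma adjusted p = 0.0964).

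To set the complexes side by side, the log2 values of a complex's genes were averaged on each array, after subtraction of each gene's mean over the 16 arrays. All 44 genes together stood at 0.11, 0.08, 0.17 and 0.17 in vehicle normoxia and at 0.07, 0.14, 0.03 and 0.05 in doxycycline normoxia. In doxycycline hypoxia they stood at -0.23, -0.15, -0.15 and -0.05, below all 8 normoxia arrays in the values as deposited. After quantile normalization doxycycline hypoxia replicate 4, at -0.0143, lay above doxycycline normoxia replicate 3, at -0.0223. The vehicle hypoxia arrays, at -0.0022, 0.08, -0.04 and -0.27, reached into the normoxia range and had the widest spread of the 4 groups (SD 0.15, n = 4). Means of the 4 complexes ran from 0.11 to 0.18 in vehicle normoxia and from -0.17 to -0.12 in doxycycline hypoxia. Complex II had its vehicle normoxia mean at 0.18 (SD 0.09, n = 4) and its doxycycline normoxia mean at 0.03 (SD 0.04, n = 4), whereas complex V had 0.14 (SD 0.05, n = 4) and 0.10 (SD 0.03, n = 4). Complex II rests on 3 genes, of which SDHA was called. Without the restricted isoforms, the 10 other genes of complex IV went from 0.16 to -0.07 under hypoxia with vehicle. With doxycycline they went from 0.08 to -0.16. Complex V without ATP5MGL went from 0.13 to -0.08 and from 0.11 to -0.16. By this measure the 2 complexes were alike under hypoxia, although only complex V held called genes. The 32 measured subunits of complex I, averaged the same way, went from a mean of 0.15 to -0.07 under hypoxia with vehicle and from 0.10 to -0.18 with doxycycline.

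**Figure D4:**
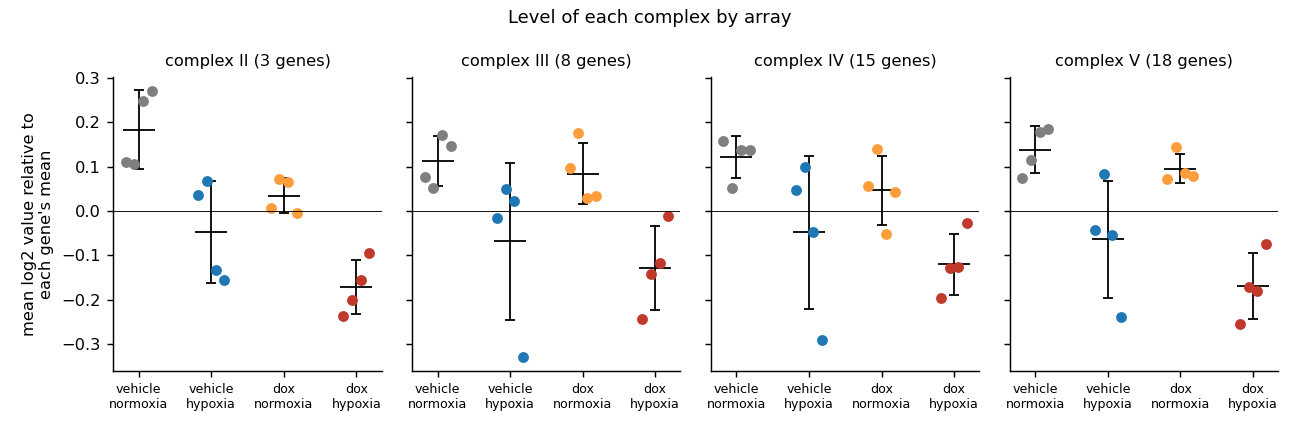
Mean log2 value of the genes of each complex relative to each gene's own mean over 16 arrays, by array and group (points in replicate order, bars for mean and SD of 4 arrays). In these values as deposited the doxycycline hypoxia arrays lie below 0 in all 4 complexes. Vehicle hypoxia replicate 4 is the lowest array of its group in each, at -0.33 in complex III. Doxycycline hypoxia replicate 4 was above 0 in complex III after centring each array, at 0.0159, and after quantile normalization, at 0.0308.

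The hypoxia differences of the subunits were alike with vehicle and with doxycycline in their order. Over the 44 subunits the differences of the 2 settings, which share no arrays, correlated with r = 0.75 (Pearson) and rho = 0.71 (Spearman), and 40 genes lay below 0 in both. Over all 22411 genes the values were 0.77 and 0.59. The doxycycline differences in normoxia and in hypoxia had an r of 0.67 and a rho of 0.70 over the 44, beside 0.70 and 0.58 over all genes. Genes are not independent replicates, and these values describe likeness only.

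**Figure D5:**
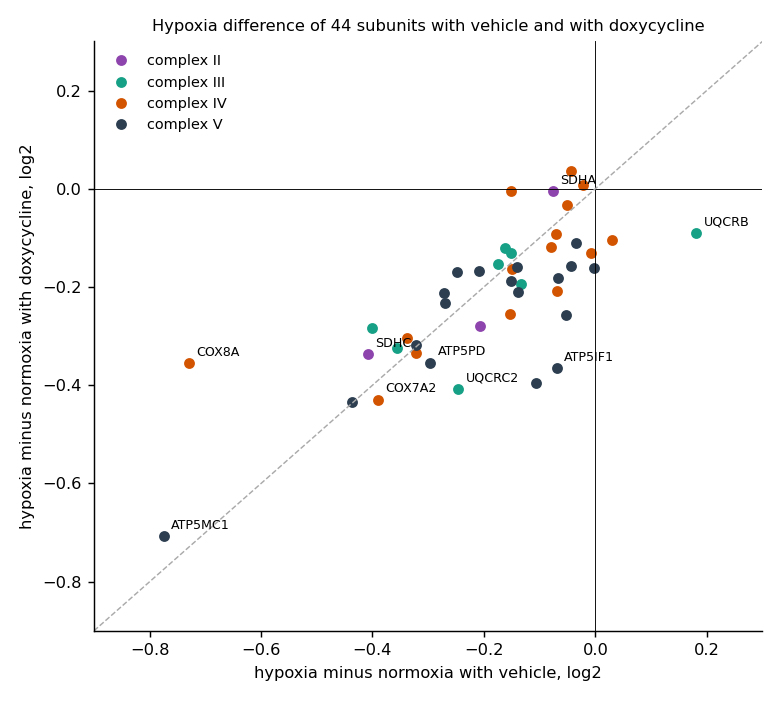
Hypoxia minus normoxia difference of each of the 44 subunits with doxycycline (vertical, log2) against that with vehicle (horizontal, log2), coloured by complex, with a dashed line of equality. Of the points 40 lie below 0 on both axes, ATP5MC1 lies at -0.77 and -0.71, and COX8A lies at -0.73 and -0.35, with -0.47 for vehicle when vehicle hypoxia replicate 4 is left out.

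Arrays without overlap tell the same in a cruder way. Every vehicle hypoxia array lay below every vehicle normoxia array for 7 of the 44 genes, when this held for 8.21% of all genes. With doxycycline it held for 14, beside 9.15% of all genes, and in the double comparison for 22, beside 16.7%. The arrays that stood apart bear on these counts. Without the 2 hypoxia arrays numbered 4, the test called 2 subunits lower under hypoxia with vehicle (ATP5MC1 and ATP5PD), 17 with doxycycline, 13 with doxycycline against vehicle in hypoxia and 26 in the double comparison, and 35 and 43 of the 44 hypoxia differences lay below 0. The interaction then lay below 0 for 41 of 44 genes, beside 24 with all arrays, with a median of -0.12 and 0 genes past the test. After quantile normalization of all arrays only 18 lay below 0. Without these 2 arrays 5.49%, 10.2%, 10.6% and 31.1% of all genes were called, in the order given. Leaving out vehicle hypoxia replicate 4 alone gave 2, 9, 10 and 27 called subunits, and leaving out doxycycline hypoxia replicate 4 alone gave 6, 7, 3 and 20. The former fit called 4.64% of all genes under hypoxia with vehicle and 7.4% for doxycycline against vehicle in hypoxia. The latter fit called 7.39% and 4.07%. Shares for the other comparisons are not given, and whether these changes are particular to the subunits was not tested.

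Genes that build or surround these complexes were counted beside the same shares of all genes called lower, 4.65% under hypoxia with vehicle and 2.97% with doxycycline. Of 42 measured factors for complexes II to V, 6 were lower and 0 higher with vehicle, and 8 were lower and 0 higher with doxycycline. Below 0 lay 29 and 34 of the 42, when 64.3% and 55.1% of all genes did. BCS1L, which inserts the iron-sulfur protein into complex III, gave -0.64 and -0.45 (limma adjusted p = 0.00195 and 0.0180), and with doxycycline in normoxia -0.36 (0.0316). COX15, needed for the heme A of complex IV, gave -0.61 and -0.57, SURF1, which helps to assemble complex IV, -0.55 and -0.49, and SCO1, which delivers its copper, -0.33 and -0.41, all past the test. ATPAF1, which assembles the head of complex V, gave -0.31 and -0.32 and passed in both. With doxycycline in normoxia COA6, a copper factor of complex IV, rose by 0.42, PNKD by 0.38 and UQCC6, a complex III factor, by 0.28. With doxycycline in hypoxia SCO1 gave -0.29 and PNKD 0.27, both past the test. Of the 42 factors, 3 were higher and 1 lower with doxycycline in normoxia, when 9.08% of all genes were called. In hypoxia 1 was higher and 1 lower, when 4.66% of all genes were called. These shares were near those of all genes and are no result about the factors.

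Of 32 complex I subunits 8 were lower and 0 higher under hypoxia in each setting, to be read against the same 4.65% and 2.97%, with medians of -0.24 and -0.28. NDUFA7 gave -0.54 and -0.77, and NDUFC1 -0.41 and -0.50. With doxycycline in normoxia 9.08% of all genes were called, against which single calls in the smaller lists stand. Of 12 tricarboxylic acid cycle enzymes, SUCLG1 and MDH2 were lower with vehicle, at -0.34 and -0.61, and 0 passed with doxycycline. DLST, of the same cycle, was lower with doxycycline in normoxia, at -0.49. Of 16 carriers and oxygen-linked partners of complex IV, ETFB, part of the electron transfer flavoprotein, was lower in both, at -0.57 and -0.46, and LONP1, the protease of the matrix, was lower with doxycycline in normoxia, at -0.54 (limma adjusted p = 0.0109). Of 15 regulators of mitochondrial biogenesis, PPARGC1A, the coactivator of NRF1, was higher with doxycycline in normoxia by 0.25 and under hypoxia with vehicle by 0.16 (limma adjusted p = 0.00268 and 0.0395), and YY1 was higher under hypoxia with vehicle by 0.27. Under hypoxia with vehicle 2.26% of all genes were called higher, and 2 calls among 15 are no result about the regulators. POLRMT, the RNA polymerase of mitochondria, was lower with doxycycline in normoxia, at -0.28.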

How the data were processed

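RNA of 16 A498 samples (250 ng each, labelled with biotin) was read on whole-transcript arrays. The deposited values are log2 expression values that the authors made with RMA in the Transcriptome Analysis Console, version not given in the sources used here. Nothing was done to them before testing. Of 70523 probe sets, 23781 carried 1 gene symbol, 1543 several and 45199 none; 21497 were matched to RefSeq by gene ID and 2280 by symbol or synonym. The brightest probe set stood for each of 22411 genes. The means of the 4 groups were fitted with limma 3.58.1 (R 4.3.3) with an intensity trend, two-sided, with Benjamini-Hochberg adjustment over all genes and a threshold of 0.05. The script was tested on simulated data. Single genes were also compared by exact permutation of 4 against 4 arrays (70 arrangements, smallest p 0.0286). The number of arrays limits the precision.

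Named are the subunits past the threshold in any comparison, the 2 of smallest p per complex and comparison of 1 factor, and a list of central subunits and isoform pairs; UQCRB, ATP5PB, ATP5PF and the isoforms COX7B2 and COX8C were added after their values were seen. The subunits and gene lists were chosen with earlier results of these data known. The 27 alternatives were a replicate block, each array left out in turn, removal of arrays that stood apart, a filter on dim genes, mean probe sets, centring, quantile normalization, no trend, array weights, a fit of only the arrays compared and the methods' t-test. The set of brighter genes and the CCAAT box were added after the data had been seen. No array pair held identical values.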

Additional observations from a re-analysis of the deposited data

Results flagged for a closer look

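Among 120 groups of 4 arrays (30 named subunits in 4 groups), 9 held an array whose gap to its nearest neighbour took up most of the group's range. Chance gives such an array in about 1 in 20 groups. Vehicle hypoxia replicate 4 was low for 3 subunits. COX4I1 was at 13.46 there, when the other 3 arrays lay between 13.60 and 13.62. COX6A1 was at 15.60 against 15.98 to 16.04, and ATP5F1A at 11.33 against 11.69 to 11.76.

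Vehicle normoxia replicate 1 was low for SDHD, at 8.63 against 8.91 to 8.95, and for ATP5IF1, at 7.74 against 7.90 to 7.94. SDHD was also low in vehicle hypoxia replicate 3, at 8.35 against 8.73 to 8.78. ATP5F1A was at 11.64 in vehicle normoxia replicate 2, against 11.78 to 11.81. ATP5F1E was high in doxycycline normoxia replicate 3, at 7.78 against 7.48 to 7.50. ATP5ME was low in doxycycline hypoxia replicate 1, at 8.07 against 8.21 to 8.23.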

How the results depend on the processing

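Counts of called subunits moved with the setting, while of the 4782 differences of named subunits under alternatives 0 reversed a called direction (4498 kept their side of the threshold, 137 newly passed and 147 no longer passed). Many alternatives leave a difference itself unchanged, so its direction could not reverse there. With all arrays the counts were 2 for doxycycline in normoxia, 2 for doxycycline in hypoxia, 5 for hypoxia with vehicle, 5 for hypoxia with doxycycline, 17 for both together and 0 for the interaction. Array weights gave 9, 16, 18, 21 and 32 for the first 5. Without the 2 hypoxia arrays numbered 4 they were 3, 13, 2, 17 and 26, and without the arrays at the ends of the first axis 9, 2 and 10 for doxycycline in hypoxia, hypoxia with vehicle and hypoxia with doxycycline. A filter on dim genes gave 4 for doxycycline in hypoxia and 8 for hypoxia with vehicle. Centred arrays gave 1 for doxycycline in hypoxia and 3 for hypoxia with doxycycline, quantile normalization 1 for doxycycline in normoxia and 0 in hypoxia, and no trend 8 for hypoxia with doxycycline. Only the arrays compared gave 4, 0 and 1, and the methods' t-test 4, 0 and 0, for doxycycline in normoxia, doxycycline in hypoxia and hypoxia with vehicle. The causes were not tested. Shares of all genes called are given above only for all arrays, without the 2 hypoxia arrays numbered 4 and, in part, without either of them. Whether changes in the counts, here or with 1 array left out, are particular to the subunits cannot be read from them.

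Leaving out 1 array at a time gave 1 to 3 for doxycycline in normoxia, 0 to 10 for doxycycline in hypoxia, 2 to 8 for hypoxia with vehicle, 2 to 9 for hypoxia with doxycycline, 12 to 27 for both together and 0 to 0 for the interaction. The replicate numbers did not pair the arrays: 24 same-numbered pairs had correlations of -0.84 to 0.54 (median -0.07, 8 over 0.1), and 2 of 16 arrays correlated best with their own number. With the replicate block the counts were 2, 0, 2, 2 and 14. Whether differences of COX6A1 and ATP5F1B, above 16 on some arrays, are compressed was not tested.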
